A study of Mus musculus with 6 samples.

Results

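The genes described here are 10 members of the SMAD signalling pathway, 6 SMAD genes (Smad1, Smad2, Smad3, Smad5, Smad6 and Smad7) and the 4 Id genes (Id1, Id2, Id3 and Id4). They were selected by symbol, by a rule that uses no measured value but was set with earlier results of these data known, and all 10 are among the 23170 genes that the authors' deposited table compares. RNA was sequenced from subchondral bone of the mandibular condyle, the jaw side of the temporomandibular joint, of wild type mice operated on 1 side. Of the libraries 3 carry a sham label and 3 a partial discectomy label, which is the surgical removal of part of the joint disc, and the age label of both groups reads P6w+PO2w, with its prefixes not spelled out. Whether the 3 libraries of a group come from different mice, and whether animals were pooled, is not in the labels. Each description also holds a number of unstated meaning, and the number 6 occurs in both groups. A mouse that gave a library to each group is thus neither shown nor excluded, and such pairing was not tested. Sham descriptions carry the letters Rctrl and those of partial discectomy LPD, unexplained, so whatever else these letters mark and the operation cannot be told apart.

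SMAD proteins carry signals of the TGF-beta superfamily from the cell surface to the nucleus. Ligands of the bone morphogenetic protein (BMP) branch lead receptors to phosphorylate SMAD1 and SMAD5, and TGF-beta and activin lead to SMAD2 and SMAD3, while SMAD6 and SMAD7 are inhibitory SMADs whose genes are switched on by the signal they restrain. The Id genes are classic BMP targets, and their proteins bind basic helix-loop-helix (bHLH) transcription factors and keep them off DNA, which can hold back differentiation. The activity of SMAD proteins depends on phosphorylation, which RNA levels do not measure.

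Promoter sequence was matched from RefSeq (GRCm38.p6) for 7 of the 10 genes, in 9 windows of 300 bases, from 250 before to 50 after an annotated start. Id1, Smad2 and Smad7 had no matched promoter entry and were not searched, so whether they hold these motifs is not known here. The windows were searched on both strands for GTCTAGAC, a palindrome of 2 SMAD boxes, for GGCGCC, the core of the GC-rich element of BMP-responsive genes, for GTCTG, a single SMAD box with its next base, and for the E-box CANNTG, which bHLH factors bind. The stretches below show 6 of the 12 matches counted over the 9 windows, the palindrome, 1 GGCGCC match for each gene that has one and both GTCTG matches of Id3, 5′ to 3′ on the gene's strand, with the matching letters in capitals, because these are the letters through which SMAD proteins are known to read such promoters.
Smad6 (chr9:64022056-64022083, minus strand): cgccgcggagccgccaaagtGTCTAGAC
Id2 (chr12:25096298-25096342, minus strand): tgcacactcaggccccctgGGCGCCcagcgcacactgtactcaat
Id4 (chr13:48260948-48260993, plus strand): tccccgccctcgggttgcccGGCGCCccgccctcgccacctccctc
Smad5 (chr13:56703013-56703051, plus strand): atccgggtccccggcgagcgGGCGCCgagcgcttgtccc
Id3, first match (chr4:136143635-136143679, plus strand): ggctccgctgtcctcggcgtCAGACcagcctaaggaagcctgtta
Id3, second match (chr4:136143734-136143778, plus strand): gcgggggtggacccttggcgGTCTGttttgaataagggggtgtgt

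The palindrome GTCTAGAC was found at Smad6 alone among the 7 genes, with its first base at -4 from the start and its last bases past it, and it is present in 0.213% of all 32851 promoter windows. The letters GGCGCC occur at Id2, Id4 and Smad5, with first bases at -231, -148 and -19 from a start. They lie in 4 of the 9 windows searched, where overlapping windows of Smad5 count separately, beside 11.9% of all windows. Id3 holds GTCTG once on each strand, at -167 and -68 from its start, and 1 window of Smad5 also holds it. It is thus in 2 of the 9 windows, against 49.6% of all windows. An E-box lies in 4 of the 9 windows, at Id2, Smad5 and Smad6, against 72.3% of all windows. The letters GTCTAGAC hold neither GTCTG nor its reverse complement CAGAC, so no match counts under both. The matches shown at Id2, Id3 and Smad5 lie upstream of the RefSeq start used, but inside the gene bounds given further below. All matches are a description of letters and no measure of binding.

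Every value that follows was read or computed from the authors' deposited table. Its group means are normalized expression values in a unit that is not named, with a smallest value of 1 that is taken here as an added offset and called the floor. Levels of different genes are therefore not compared with each other, and single libraries were not analysed here. Ratios are given as partial discectomy over sham, and a gene was called changed where the authors' adjusted p was under 0.05. All 12 osteoblast markers were measured, with Col1a1, the main collagen of bone, at 34180 after partial discectomy and 27783 in sham in the authors' deposited table, and so were all 8 cartilage markers and all 10 skeletal muscle markers. All 15 neutrophil markers were measured too, so the presence of a list is no check of the tissue. The median log2 ratio over all genes was 0.08, and 62.7% of the genes had a ratio above 1.

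None of the 10 SMAD and Id genes was called in either direction by the adjusted p, beside 2.28% of all genes called higher and 0.104% called lower in the authors' deposited table. For these 10 genes the adjusted p ran from 0.336 to 0.998. At an adjusted p under 0.1 there was again no member, beside 3.84% of all genes higher and 0.324% lower. At an unadjusted p under 0.05 Id4 was on the higher side and no member on the lower, beside 10.9% and 3.31% of all genes. By the deposited 95% limits no member lay off equal means, where 11.1% of all genes lay above and 3.59% below. With 1 of 10 or fewer, the members' counts are near or under these backgrounds by each rule. Ratios were above 1 for 5 members and below 1 for 5, with a median log2 ratio of 0.00 to 2 decimals (-0.0012). A p that misses the threshold does not show equal levels, so the limits are given with each gene. In bulk tissue a change in the share of cells and a change in RNA per cell cannot be told apart.

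**Figure D1:**
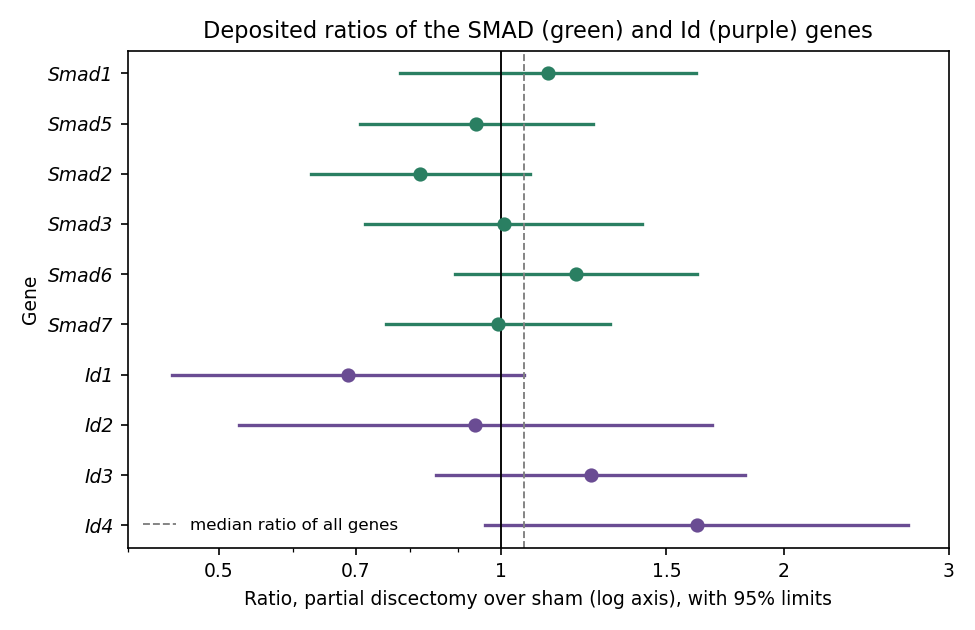
Ratio of the partial discectomy mean to the sham mean for each gene, on a log axis, with the authors' 95% limits as horizontal lines, SMAD genes in green and Id genes in purple. The solid line marks equal means and the dashed line the median ratio of all genes. All 10 lines cross equal means, and those of the Id genes reach from 0.446 to 2.72 while those of the SMAD genes stay between 0.627 and 1.62.

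Neither BMP-branch SMAD gene among the members was called, with ratios of 0.941 for Smad5 and 1.12 for Smad1. Smad5 averaged 61.6 with partial discectomy against 65.4 with sham, at a ratio of 0.941 (95% limits 0.706 and 1.25, adjusted p = 0.859), in the authors' deposited table. Smad1 stood at 28.9 and 25.8, with partial discectomy first here and wherever a pair of means has no label, in the authors' deposited table, a ratio of 1.12 (limits 0.781 and 1.61, adjusted p = 0.843). The highest of the 6 libraries for Smad1, at 38.2 in the authors' deposited table, had to be a partial discectomy library, given both group means and the geometric mean. The other 2 libraries of that group then averaged 24.3, under the sham mean, which put the ratio without the highest library at 0.942. The direction of Smad1 thus changed without this library, whose removal lowers the partial discectomy mean by construction. No other single library could be left out, so whether the direction rests on this one cannot be read. For Smad5 the highest library was 72.2, and its group could not be settled. Leaving it out gave a ratio of 0.860 if it was a partial discectomy library and 0.992 if it was a sham library. Smad9, the remaining BMP-branch SMAD gene and not one of the 10, had a ratio of 0.916 (0.636 to 1.32) in the authors' deposited table.

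Both SMAD genes of the TGF-beta and activin branch were also without a call. Smad3 had nearly the same mean in both groups, 50.5 after partial discectomy and 50.2 in sham, with a ratio of 1.01 (95% limits 0.716 and 1.41, adjusted p = 0.998) in the authors' deposited table. For Smad3 the highest library, at 62.01 in the authors' deposited table, could lie in either group, and the ratio without it was 0.891 or 1.14. The side of equal means changed only if that library was a partial discectomy library. Relative to the median of all genes or to the summed means the log2 ratio of Smad3 was -0.07 or -0.12. Smad2 averaged 26.8 with partial discectomy against 32.7 with sham, at a ratio of 0.820 (limits 0.627 and 1.07, adjusted p = 0.498) in the authors' deposited table. Among the 6 SMAD genes this ratio was the farthest from 1 on the log scale. The highest library of Smad2, at 36.2 in the authors' deposited table, had to be a sham library. The other 2 sham libraries averaged 31.0, so that the ratio without it was 0.866. With the summed means of both groups as the centre, a log2 ratio of 0.13, the upper limit of Smad2 lay below the centre, whereas against equal means and against the median of all genes its limits did not. Smad4, the partner shared by both branches and not one of the 10, had a ratio of 1.03 (0.754 to 1.40) in the authors' deposited table.

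The inhibitory SMAD genes, which serve as feedback readouts of the pathway, were not called either. Smad6, which restrains mainly the BMP branch, averaged 16.5 with partial discectomy against 13.7 with sham, at a ratio of 1.20 (95% limits 0.894 and 1.62, adjusted p = 0.606) in the authors' deposited table. Its highest library, at 19.8, had to be a partial discectomy library, and without it the ratio was 1.08. Smad7, which restrains both branches, stood at 23.7 and 23.9, a ratio of 0.993 (limits 0.754 and 1.31, adjusted p = 0.974) in the authors' deposited table. Its highest library, at 26.5 in the authors' deposited table, exceeded the mean of all 6 libraries by the smallest factor of the 10 members, 1.11. The group of that library was not settled, and the ratio without it was 0.935 or 1.05, on either side of equal means. With limits this close to 1, a doubling or halving of the mean lies outside the deposited limits of each of the 6 SMAD genes, which run from 0.627 at the lowest to 1.62 at the highest.

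The Id genes spread to both sides of equal means. Id1, a direct BMP target that is strong in endothelial and progenitor cells, averaged 17.3 with partial discectomy against 25.2 with sham, at a ratio of 0.686 (95% limits 0.446 and 1.06, adjusted p = 0.393) in the authors' deposited table. For Id1 the highest library, at 32.3, had to be a sham library. The other 2 sham libraries averaged 21.6, above the partial discectomy mean, so that the ratio without the highest library was 0.799. Against the median of all genes, and with the summed means as the centre, the upper limit of Id1 fell just below the centre. Id4, at the other end of the family, averaged 17.0 with partial discectomy against 10.5 with sham, at a ratio of 1.62 (limits 0.961 and 2.72, unadjusted p = 0.0451, adjusted p = 0.336) in the authors' deposited table. Its p and its limits thus fell on different sides of their thresholds. The highest library of Id4, at 21.0, had to be a partial discectomy library, the other 2 of that group averaged 14.9, and the ratio without it was 1.42. A long noncoding gene on the other strand, Gm49291, overlaps Id4 in the GENCODE M21 annotation. Its mean over 6 libraries was 1.24 in the authors' deposited table, close to the floor. A second antisense gene there, A330033J07Rik, was not analysed here, and neither were 3 small RNA genes inside Smad5 on its own strand, and whether counting used strand is not given in the sources.

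Id2 and Id3 are also made by lymphocytes, where they hold E proteins in check. Id3 averaged 65.0 with partial discectomy against 52.2 with sham, at a ratio of 1.25 (95% limits 0.852 and 1.82, adjusted p = 0.655) in the authors' deposited table. Its highest library, at 86.1, had to be a partial discectomy library, and the other 2 averaged 54.5, which left a ratio of 1.04. Id2 stood at 46.8 and 49.9, a ratio of 0.939 (limits 0.525 and 1.68, adjusted p = 0.813) in the authors' deposited table. Its highest library, at 76.7, was 1.59 times the mean of all 6, the largest such factor among the 10 members. The group of that library could not be settled. Leaving it out gave a ratio of 0.639 if it was a partial discectomy library and 1.28 if it was a sham library, so Id2 changed sides of equal means only in the second reading.

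**Figure D2:**
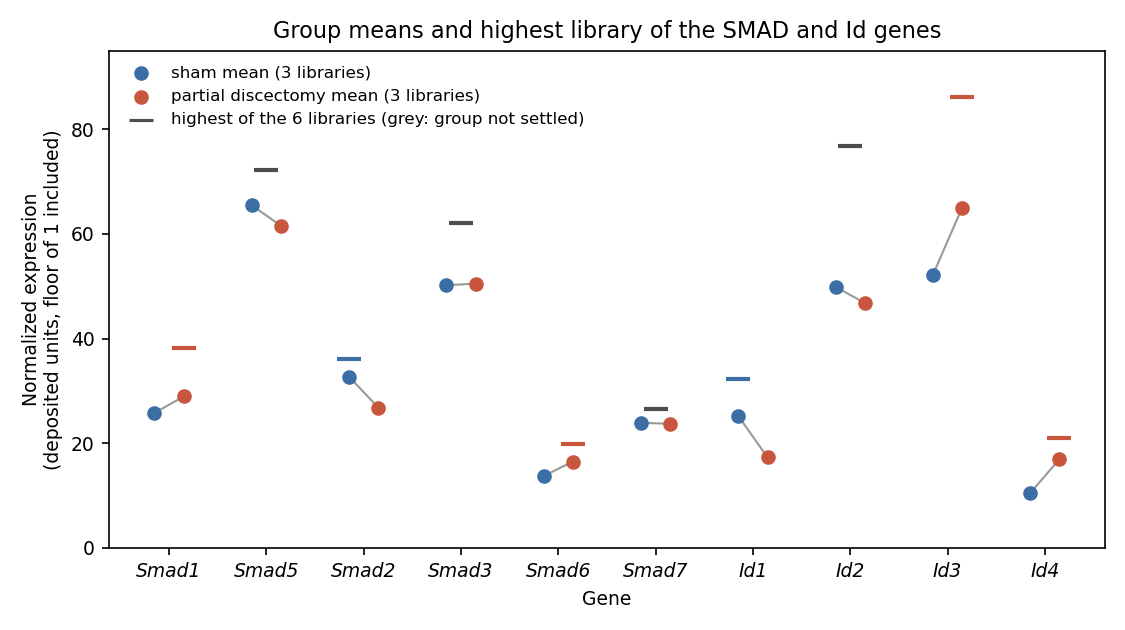
Deposited group means of each gene (sham blue, partial discectomy red, 3 libraries each, floor of 1 included) and the highest of the 6 libraries as a dash, coloured by the group it had to belong to or grey where that was not settled. The dash sits well above both means for the 4 Id genes, and close to them for Smad7 at 26.5 against means of 23.7 and 23.9.

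The estimated spread between libraries of a group was higher for each of the 4 Id genes than for any of the 6 SMAD genes. The within-group coefficient of variation (CV, the standard deviation as a percent of the mean) was estimated from the gap between the arithmetic and the geometric mean of the 6 libraries, less the part due to the difference of the group means. It was 43.6% for Id2, 36.5% for Id4, 30.3% for Id1 and 24.1% for Id3. Among the SMAD genes it was 22.8% for Smad1, 19.8% for Smad3, 13.8% for Smad6, 11.9% for Smad5, 11.3% for Smad7 and 10.4% for Smad2. The medians were 33.4% over the Id genes and 12.8% over the SMAD genes. Genes of a similar mean, within 0.5 on the log2 scale, had a median CV of 17.3% to 17.9%, and the Id genes ranked at percentiles 94.7 (Id2), 90.6 (Id4), 85.9 (Id1) and 70.6 (Id3) among them. The SMAD genes ranked between percentiles 17.9 (Smad2) and 69.8 (Smad1). Each estimate rests on 6 libraries and includes counting error, whose size is unknown because the depth is, and the difference between both families was not tested, since genes are not replicates.

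**Figure D3:**
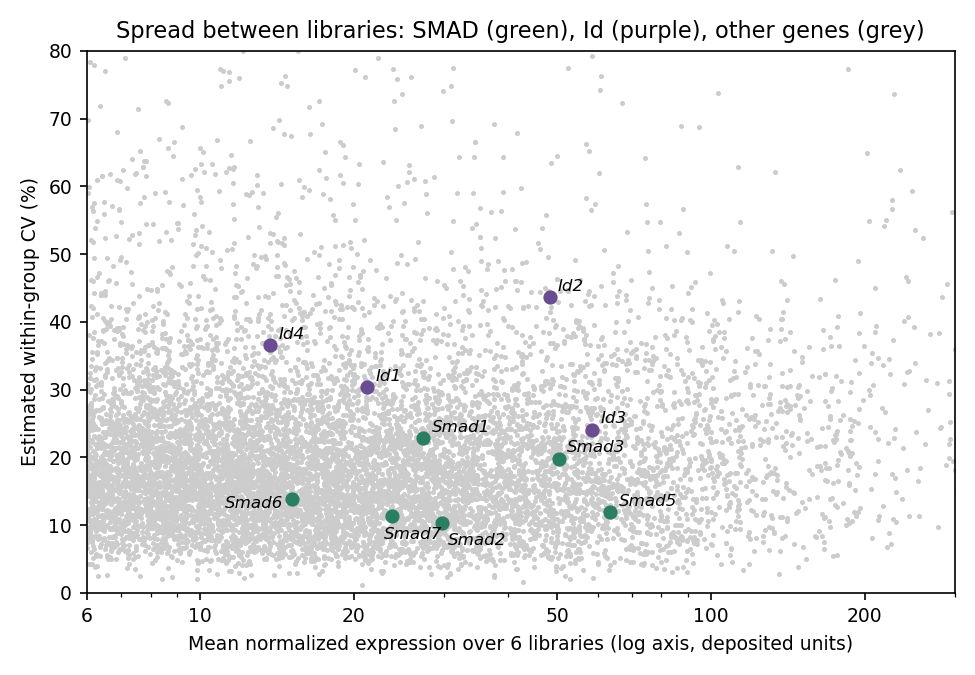
Estimated within-group CV in percent against the mean over 6 libraries on a log axis, for the 10 members (SMAD green, Id purple) and for other genes within the axes that exceed the floor by 5 or more on average (grey). The Id genes lie from 24.1% to 43.6% and the SMAD genes from 10.4% to 22.8%.

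The highest library could be placed for 6 of the 10 members, in partial discectomy for Smad1, Smad6, Id3 and Id4 and in sham for Smad2 and Id1. In each of these the library was in the group with the higher mean, so that leaving it out lowers that group's mean by construction. The ratio without it was nearer to 1 on the log scale for all 6, and for Smad1 it passed to the other side, at 0.942. Different genes may have different highest libraries, and whether the groups overlap could not be read from the means.

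By position, the 10 genes lie on 7 chromosomes, and in the table's coordinates on mm10 all 10 match the GENCODE M21 gene bounds. Smad3 (chromosome 9, 63646767 to 63757994) and Smad6 (chromosome 9, 63953076 to 64022059) are neighbours on the minus strand, with 195 kb between them and the ratios 1.01 and 1.20 from the authors' deposited table. Smad5 (56703010 to 56742377) and Id4 (48261228 to 48266026) lie on the plus strand of chromosome 13. Smad2 (76241580 to 76310963) and Smad7 (75367529 to 75395935) lie on the plus strand of chromosome 18. Id1 lies on chromosome 2 (152736251 to 152737410), Id2 on chromosome 12 (25093799 to 25097140), Id3 on chromosome 4 (136143497 to 136145755) and Smad1 on chromosome 8 (79338395 to 79399518).

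Genes upstream of the SMAD proteins were likewise without a call. Of 13 genes listed as BMP ligands, Bmp1 included, 11 were in the table, of which none was called in the authors' deposited table, 2 were lower at an unadjusted p under 0.05 and the median log2 ratio was 0.10. These were Bmp5, with a ratio of 0.521 (95% limits 0.316 and 0.860, adjusted p = 0.269), and Gdf10, with 0.594 (0.362 to 0.974), in the authors' deposited table. Bmp8a and Bmp3 lay at ratios of 1.37 and 1.36, and Bmp1, a protease that cleaves procollagen despite its name, had 1.10 in the authors' deposited table. Bmp1 is thus no ligand, but it counts in the median of the list. That median is the log2 ratio of Gdf5, whose means of 1.39 after partial discectomy and 1.30 in sham lie near the floor. Without Bmp1 the median would lie between Gdf5 and Bmp6, which had a log2 ratio of -0.11. Of 9 TGF-beta and activin ligand genes listed 8 were in the table, none was called and 1 was lower at an unadjusted p under 0.05, with a median log2 ratio of -0.15. It was Tgfb3, at 67.6 after partial discectomy and 113 in sham in the authors' deposited table (ratio 0.599, 0.387 to 0.928, adjusted p = 0.237). Tgfb2 had a ratio of 0.656 (0.365 to 1.18) and Tgfb1 one of 1.16 (0.784 to 1.72), while Mstn had 0.764 close to the floor, in the authors' deposited table.

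Receptors and extracellular antagonists gave no call either. Of 17 receptor and co-receptor genes 11 had a ratio below 1, with a median log2 ratio of -0.22, and 1 was lower at an unadjusted p under 0.05. It was the type I receptor gene Acvr1c, at 1.41 and 2.13 near the floor in the authors' deposited table. The co-receptor genes Rgmb and Rgma lay at ratios of 0.778 and 0.705, the BMP type I receptor gene Bmpr1b 1.17 and the type II receptor gene Bmpr2 0.854 (95% limits 0.599 to 1.22) in the authors' deposited table. Of 17 antagonist genes 16 were in the table, and 2 were higher and 1 lower at an unadjusted p under 0.05, with a median log2 ratio of -0.15. Fst, which encodes the activin binder follistatin, averaged 6.08 with partial discectomy against 3.18 with sham, at a ratio of 1.91 (limits 1.34 and 2.74, adjusted p = 0.0796) in the authors' deposited table. Grem1, a BMP antagonist, came to a ratio of 1.81 (limits from 1.10 up to 3.00, adjusted p = 0.213) and Nbl1, of the same family, 0.522 (0.306 and 0.891, adjusted p = 0.312) in the authors' deposited table. Fstl1 had 0.908 in the authors' deposited table.

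Cofactors and regulators of SMAD proteins had a median log2 ratio of 0.11 over the 25 of 26 genes in the table, with no call and 1 gene higher at an unadjusted p under 0.05. That gene was the corepressor Tgif2, at 3.85 and 2.44 in the authors' deposited table (ratio 1.58, adjusted p = 0.296). Zeb1, which encodes a SMAD-binding repressor, came to a ratio of 0.686 (limits from 0.467 up to 1.01, adjusted p = 0.391) and its relative Zeb2 one of 1.11 (0.783 to 1.59) in the authors' deposited table. Zfp423, a partner of BMP-branch SMADs, had 0.784 and the ubiquitin ligase gene Nedd4l 1.20 in the authors' deposited table.

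Other targets of both branches gave no call, with more values below 1 than above. Of 19 further BMP-responsive genes 1 was higher and 2 lower at an unadjusted p under 0.05, and the median log2 ratio was -0.13. The homeobox gene Prrx2 averaged 6.27 with partial discectomy against 12.4 with sham, at a ratio of 0.506 (95% limits 0.335 and 0.763, adjusted p = 0.113) in the authors' deposited table. Tbx3, a T-box gene, came to a ratio of 0.617 (limits from 0.433 up to 0.879, adjusted p = 0.181), the homeobox gene Msx1 0.697, the blood and endothelial factor gene Gata2 1.48 and Runx2, which sets the osteoblast lineage, 0.877 in the authors' deposited table. Of 20 TGF-beta-responsive genes 14 had a ratio below 1, with 3 lower and 0 higher at an unadjusted p under 0.05 and a median log2 ratio of -0.19. Acta2, the smooth muscle actin gene, came to a ratio of 0.538 (limits from 0.367 up to 0.789, adjusted p = 0.135), Snai1 one of 0.701, Tagln one of 0.566 and the matrix gene Fn1 one of 1.01 in the authors' deposited table. Acta2 and Tagln are also markers of pericytes and smooth muscle. That list of 8 genes, which holds both, had a median log2 ratio of -0.41, with 5 ratios below 1 and 3 above. The 3 above, of Cnn1, Rgs5 and Notch3, lay at 1.01, 1.02 and 1.05. Summed levels of the list above the floor were 477 after partial discectomy and 599 in sham, with Acta2 and Tagln included. The part of that list in these values was not tested.

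Among the bHLH factors and related genes with which Id proteins pair or compete, 2 of the 16 in the table, from a list of 22, rose after partial discectomy and none fell. Lyl1 rose 2.78-fold (95% limits 1.92 to 4.05, adjusted p = 0.0151), from 3.29 in sham to 9.16, in the authors' deposited table. Tal1 rose 4.78-fold (2.599 to 8.80, adjusted p = 0.0267), from 2.59 to 12.4, in the authors' deposited table. Both are factors of blood and blood vessel development, and Tal1 drives the red cell lineage. The E protein gene Tcf3 came to a ratio of 1.52 (limits from 1.04 up to 2.21, adjusted p = 0.259), its relative Tcf4 one of 0.760 and the repressor gene Bhlhe41 one of 0.549 (0.307 and 0.983, adjusted p = 0.243) in the authors' deposited table. Over the 16 genes the median log2 ratio was -0.04.

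**Figure D4:**
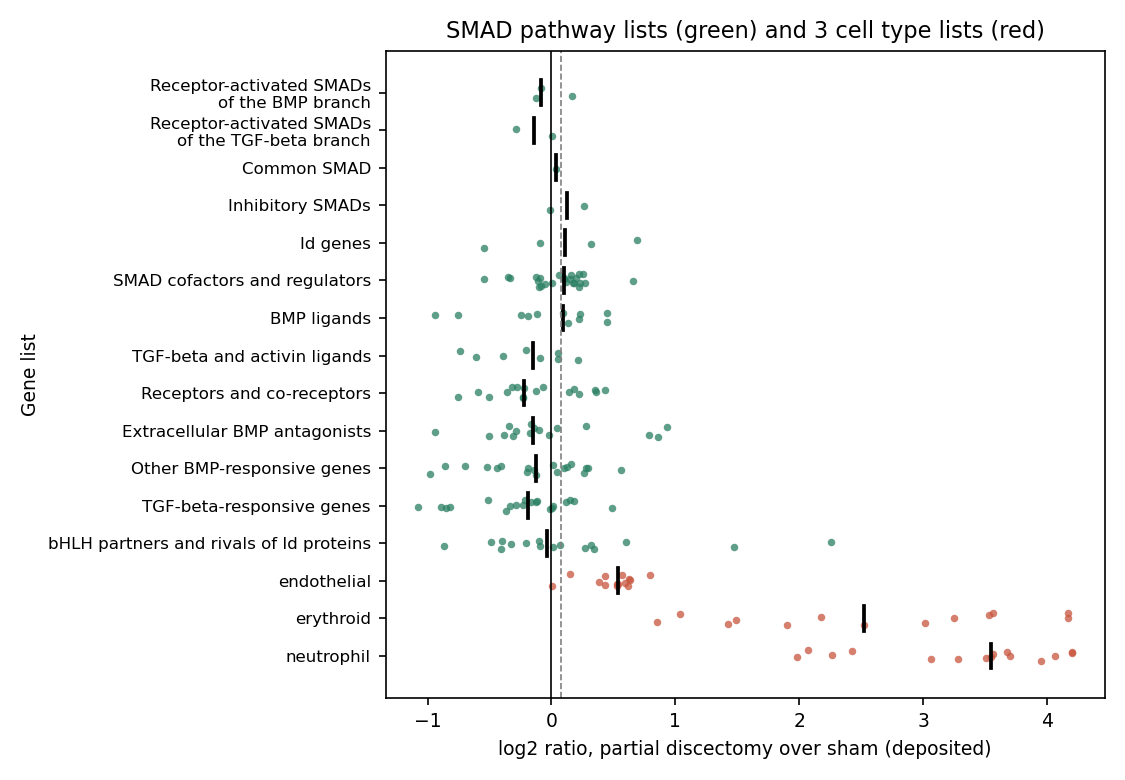
Deposited log2 ratio of each gene (points, shifted vertically at random for visibility) in the SMAD groups (Smad4 and Smad9 included) and the Id group, in 8 further pathway lists (green) and in 3 cell type lists (red), with the median of each list as a black bar, the solid line at equal means and the dashed line at the median of all genes. Pathway medians lie between -0.22 and 0.13, and the erythroid and neutrophil medians at 2.52 and 3.55.

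Over the 126 different genes of these 8 lists, 2 were called higher (Lyl1 and Tal1) and none lower in the authors' deposited table, beside the 2.28% and 0.104% of all genes. By the unadjusted p, 7 genes were higher and 12 lower at 0.05, beside 10.9% and 3.31% of all genes. The median log2 ratio was -0.10, beside 0.08 over all genes.

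Markers of other cell types moved in the same comparison, and their part in the values of the SMAD and Id genes was not tested. Most blood cell markers were higher after partial discectomy, with 13 of 15 neutrophil, 11 of 13 erythroid, 8 of 10 megakaryocyte, 2 of 14 B cell, 5 of 12 T and NK cell and 4 of 12 monocyte and macrophage genes called. In the monocyte and macrophage list 10 ratios lay above 1 and 2 below, those of Cd163 at 0.779 and C1qa at 0.983. Summed above the floor, the neutrophil list stood at 1508 with partial discectomy and 113 with sham, and the erythroid list at 502 and 130.2. For the B cell list these sums were 202 and 73.1, and for the T and NK cell list, whose cells express Id2, 23.6 and 6.73. Genes of endothelial cells, in which Id1 and Smad6 are well known, had a ratio above 1 in 14 of 14, a sum of 367 after partial discectomy and 260.1 in sham, and a median log2 ratio of 0.53, with no call and 3 genes higher at an unadjusted p under 0.05. Of these lists no gene in the table had a mean within 0.1 of the floor. The osteoblast, chondrocyte and skeletal muscle lists had median log2 ratios of 0.58, -0.07 and -0.47 with no call, and the osteoclast and cell cycle lists 0.79 and 1.04, with 0 and 1 called higher.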

How the data were processed

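RNA was sequenced from 3 sham and 3 partial discectomy libraries. Build mm10 and the tool STAR 2.6.1d are named, per the submitters' processing notes. The sources used here name no counter, gene filter, normalization or model. The values are those of 1 table deposited by the authors. Its group means, mean, geometric mean and highest library are normalized signal, called expression here, and its ratio and log2 ratio columns were deposited by the authors and equal the quotient of the group means. The deposited fold change and its 95% limits were entered as a score, because they are signed, and turned into ratios. The deposited p-value and its adjustment, which equals Benjamini-Hochberg over all 23170 genes, are the authors'. The second file held positions and symbols only and was not used. Depth per library is unknown, and if the libraries are not from separate mice the p-values measure only the spread between these samples.

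Computed here with Python 3.11.15, pandas 2.3.3 and NumPy 2.4.6 were the values above the floor, the CV estimate, the group of the highest library (the other group being unable to reach the deposited geometric mean with it) and motif matches. Both computations treat the deposited means as means of 3 libraries, and were tested on simulated data. The authors' statistics are the main result, since no model can be refitted to group means. Members and lists were chosen with earlier results of these data known. Named genes are the 10 members and, per pathway list, every called gene, the 4 with the smallest p and the one with the highest mean, and Col1a1 and the genes overlapping a member were added. Some genes that this rule names are not reported here. No gene of like pattern was sought, since 2 group means give no pattern. Members are given with and without their highest library. Sequences are from RefSeq, GRCm38.p6.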

Additional observations from a re-analysis of the deposited data

How the results depend on the processing

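The members called by the adjusted p, 0 higher and 0 lower, stayed at 0 and 0 when the deposited p-values were readjusted over genes exceeding the floor by at least 1 or 5 on average, or without 6 blood cell lists, at an adjusted p under 0.1, and by the 95% limits against equal means. At an unadjusted p under 0.05 there was 1 higher (Id4). With the median of all genes as the centre for the limits there was 1 lower (Id1), and with the summed means as the centre 2 lower (Id1 and Smad2), since both centres lie above 0. A centre above 0 puts more genes of any kind on the lower side. The share of all genes by these centred limits was not counted, so whether these counts are unusual cannot be read. The median log2 ratio of the members was -0.0012, and -0.0014 with the floor subtracted, -0.08 and -0.13 centred on these values, and -0.05 with the highest library left out where its group was settled. For the 4 members where it was not, both readings were added after seeing the data. In the 250 bases before the start only, GTCTAGAC matched 0 members, not 1, and CANNTG 2, not 3. Leaving out each replicate could not be run on group means. No paired analysis was possible because the table holds group means and no values per library. Depth is unknown, so no detection limit is given.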

Other observations

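The Id4 and Id1 genes, picked for this after their values were seen, had the 2 ratios farthest from 1 among the members, on opposite sides. The ratio of Id4 to Id1 was 2.35 times as high after partial discectomy as in sham by the means of the authors' deposited table, a log2 difference of 1.24. The 95% limits of both genes overlap between 0.961 and 1.06. The difference between them was not tested, because that needs values per library.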
